A study of Mus musculus with 100 samples.

Results

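Genes that lie around Myt1l on mouse chromosome 12 were followed in the cortex of mice with a Myt1l frameshift allele. Myt1l and Rps7 were left out, and every other gene of the raw count table with a start between base 27000000 and base 33000000 of chromosome 12 (build mm10) was taken. Apart from the omission of Myt1l and Rps7, the choice rested on position. Rps7 also lies inside the window, no reason for leaving it out is given, and its values are not reported here. The position rule used no comparison between genotypes, but it was set with earlier results of these data known. The choice gave 93 of the 55483 genes in the table. Of these, 30 had at least 1000 reads summed over all 100 libraries and are called the expressed neighbours, and the other 63 had fewer.

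Bulk RNA sequencing was performed on cortex of Mus musculus, labelled as strain C57BL/6J, that carried 0, 1 or 2 mutant copies of Myt1l. The allele was made with CRISPR/Cas9 in zygotes that the study's methods describe as C57BL6/N, with founders bred to C57BL/6N. It lacks 7 bp of exon 6, which shifts the reading frame at amino acid 11 and leads to a premature stop at amino acid 78, in exon 9. In mutants the study also detected a shorter MYT1L, most likely begun at an internal methionine, that lacks the nuclear localisation signal. Decay of the mutant transcript was not seen by the study. Wild-type (WT), heterozygous (HET) and homozygous (HOM) animals were taken before birth (embryonic stage E18.5) and on the day of birth (P0), and WT and HET animals on postnatal day 22 (P22) and as adults of 3 months. Whole cortex was dissected at E18.5 and prefrontal cortex at the later ages, so the first age step also compares dissections. The animal was the replicate, with 5 WT, 6 HET and 5 HOM at E18.5, 4 WT, 6 HET and 6 HOM at P0, 6 WT and 6 HET at P22, and 3 WT and 6 HET as adults. Both sexes were present in every group, and the labels give each animal a sequencing identifier of 1 or 3, called batch here. All 3 adult WT animals were of batch 1, while the adult HET animals were 3 of batch 1 and 3 of batch 3. At E18.5 both WT animals of batch 1 were female and all 3 of batch 3 were male. At P0 both WT animals of batch 1 were male and both of batch 3 female, and both HOM animals of batch 1 were female. Among WT animals of these ages batch and sex therefore cannot be told apart within an age. All mutant animals carry the same allele, and the deletion is present in every cell rather than in a chosen cell type.

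MYT1L is a zinc finger transcription factor of postmitotic neurons that mainly silences genes of other lineages, and its zinc fingers recognise a short AAAGTT element. Genes next to an edited site are of interest because an allele can alter the transcription of its neighbours in cis, through shared regulatory DNA, through the repair event or through flanking sequence that is inherited with it. Such effects would be carried by the mutant chromosome alone, and they can look like targets of the lost protein. The neighbours form no pathway. They include regulators of transcription, subunits of the Golgi and vesicle machinery, matrix proteins, signalling enzymes and metabolic enzymes.

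The deleted bases lie at chr12:29783649-29783655 (GRCm38, plus strand), inside Myt1l itself and not in any neighbour. In GENCODE M21 the site is coding sequence of exon 6 in 3 Myt1l transcripts (Myt1l-205, Myt1l-202 and Myt1l-201) and lies in exon 5, outside a coding sequence, in Myt1l-203. Both alleles are given because every comparison is between animals with different numbers of the second one, and the capitals mark the bases that it lacks.
wild-type allele: ctctgaggagaagcgccATCGCACacggt
mutant allele: ctctgaggagaagcgccacggt

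Between 29.6 and 149.6 Mreads (megareads) were counted per animal, with the highest totals at P0. Myt1l, which spans chr12:29528384-29923213 on the plus strand, was measured at 376 to 523 CPM (counts scaled to the library size) in E18.5 WT, 474 to 801 in HET and 767 to 1020 in HOM. At P0 it stood at 413 ± 23.2 CPM in WT, 547 ± 48.5 in HET and 888 ± 95.9 in HOM (mean ± SD, n = 4, 6 and 6). Gene-level counts do not tell the alleles apart, so these levels do not check the genotype labels. The HET against WT difference was 0.47 ± 0.12 at E18.5 and 0.43 ± 0.09 at P0 on the log2 scale (± SE, edgeR quasi-likelihood test). Neither passed an FDR of 0.05. At P22 it was 0.32 ± 0.05 (FDR 0.844), although all HET animals (239 to 263 CPM) lay above all WT animals (184 to 215 CPM). In adults it was -0.04 ± 0.10 (FDR 0.893), with 238.5 ± 14.3 CPM in WT and 233.5 ± 28.0 in HET (n = 3 and 6). Myt1l was thus called in no HET against WT comparison, so a neighbour that was not called there may still differ. The difference per mutant copy over all 53 animals, 0.45 ± 0.04 (FDR 5.61e-12), pools all these ages. All 8 marker genes of cortical neurons were at or above 1 CPM in every animal. A single E18.5 HET animal of batch 1 stood apart, with 2523 CPM summed over 9 choroid plexus markers against 9.64 to 15.6 in the other E18.5 HET animals. Without it, 0 neighbours were called in E18.5 HET against WT and in HOM against HET, as with it.

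Of the 30 expressed neighbours, 7 lie before Myt1l, 22 after it, and 1, the processed transcript Gm20208, overlaps it. The most distant are the lincRNA Gm9866, 2367.8 kb before, and Sypl, a synaptophysin-like vesicle protein, 3030.7 kb after. By GENCODE M21 type, 25 were protein coding, 2 were lincRNA (Gm9866 and 4933406C10Rik), 1 was a processed pseudogene (Gm18726) and 1 a processed transcript (Gm20208). Lamb1, a laminin chain, was the only one whose identifier was not found in M21. The plus strand held 13 and the minus strand 17. The gene nearest to the 3' end of Myt1l is Pxdn, which encodes peroxidasin, an enzyme that cross-links type IV collagen, 14.4 kb away. Next on that side come Sntg2, a syntrophin that anchors membrane proteins, at 251.3 kb and the transmembrane protein gene Tmem18 at 661.2 kb. On the other side the nearest expressed gene is Eipr1, which acts in endosomal recycling, at 658.5 kb, followed by the TRAPP complex subunit Trappc12 at 777.9 kb and the methionine salvage enzyme Adi1 at 846.2 kb. At the lower bound of expression the pseudogene Gm18726 was just inside with 1026 reads, and Gm31333 was just outside with 855.

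In WT cortex the expressed neighbours spanned a wide range of levels per exon length. Sox11, a transcription factor of immature neurons, had 41.8 ± 51.2 CPM per kb (mean ± SD over 18 WT animals of all ages). Prkar2b, a regulatory subunit of protein kinase A, had 39.0 ± 24.4 CPM per kb, and Dld, a subunit of the mitochondrial pyruvate and oxoglutarate dehydrogenase complexes, had 25.4 ± 5.53. Sox11 averaged 99.7 ± 53.7 CPM per kb at E18.5 and 1.22 ± 0.320 in adults, so that its spread within E18.5 alone was as wide as that over all ages. The other expressed neighbours averaged between 0.130 and 11.8 CPM per kb, with Gm18726 lowest and the phosphatase Acp1 highest. The heat map of WT levels shows all 30.

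**Figure D1:**
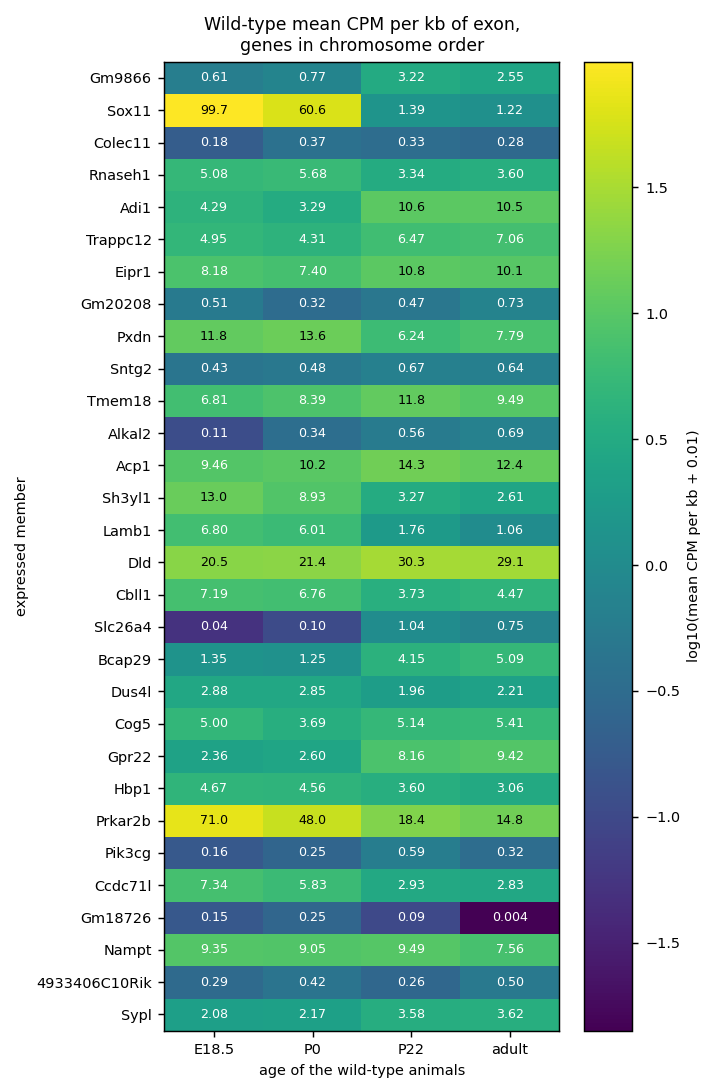
Mean level of each expressed neighbour in WT animals, in CPM per kb of exon (colour, log10 of the value plus 0.01), for 30 genes in chromosome order (rows) and 4 ages (columns; n = 5, 4, 6 and 3 animals). Sox11 and Prkar2b are brightest at E18.5 and P0 and darken at P22, while Slc26a4 and Gm9866 brighten.

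Expression of the neighbours was compared between genotypes within each age, with sex as covariate and all genes in a single fit per age. Mutant animals also have less full-length MYT1L, as the study reports, and the counts are per gene. A difference in cis from the mutant chromosome therefore cannot be told apart from one that follows the loss of the protein. No expressed neighbour passed an FDR of 0.05 (Benjamini-Hochberg over all genes tested) in any of the 8 genotype comparisons with edgeR's quasi-likelihood test. Hbp1 and Cog5 stood close to or beyond that line depending on the tool, in E18.5 HOM against WT. Hbp1, an HMG-box repressor that restrains cell division, was higher by 0.59 ± 0.12 on the log2 scale (FDR 0.0504), and Cog5, a subunit of the oligomeric Golgi complex, by 0.25 ± 0.07 (FDR 0.137). Both lie after Myt1l, at 2.003 and 1.732 Mb, and neither is among the genes nearest to the edit.

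The counts per comparison were as follows. At E18.5, 0 of 28 tested neighbours were called in HET against WT, beside 0% of all 17948 genes tested, and 0 had an unadjusted p under 0.05, beside 1.48%. In E18.5 HOM against WT 0 of 28 were called, beside 0.312% of all genes (56 of 17948), and 2 had an unadjusted p under 0.05, beside 14% of all genes. DESeq2 called 2 of the 28 there (Hbp1 and Cog5), beside 4.34% of the genes it tested, and edgeR with batch as a covariate called 1 (Hbp1), beside 3.26%. HOM against HET at E18.5 gave 0 of 28, beside 0% of all genes, with unadjusted p under 0.05 for 2, again Hbp1 and Cog5, beside 6.52% of all genes. Alkal2 and Slc26a4 did not pass the filter on low counts at E18.5.

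At P0 all 30 were tested. None was called in HET against WT, beside 0% of all 18350 genes, and 3 had an unadjusted p under 0.05, beside 16.1% of all genes. In HOM against WT 0 of 30 were called, beside 0.0545% of all genes (10 of 18350), and 1 had an unadjusted p under 0.05, beside 9.68%. In HOM against HET 0 were called, beside 0.00545% (1 of 18350), and 2 had an unadjusted p under 0.05, beside 10.7%. At P22 and in adults 0 of 29 were called in HET against WT, beside 0% of the 18062 and 18609 genes tested, and 0 had an unadjusted p under 0.05 at either age, beside 1.38% and 6.17% of all genes. Gm18726 did not pass the filter at these ages. DESeq2 and edgeR with batch as a covariate also called 0 neighbours in each of these 5 comparisons and in both E18.5 comparisons with HET.

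The sizes of the differences were small and close to those of expressed genes elsewhere. The median absolute log2 difference over the tested neighbours was 0.09 in E18.5 HET, 0.12 in E18.5 HOM, 0.14 in P0 HET and 0.11 in P0 HOM, each against WT. Over all expressed genes of the table it was 0.07, 0.15, 0.17 and 0.14 in the same order. At P22 it was 0.04 for the neighbours and 0.05 for all expressed genes, and in adults 0.14 and 0.13. A missed threshold does not show that a gene did not change, so the intervals are of use. The 95% confidence interval lay within ± 0.5 on the log2 scale for 14 of 28 neighbours in E18.5 HOM against WT, for 18 of 30 in P0 HOM, for 23 of 29 in P22 HET and for 16 of 29 in adult HET. It lay within ± 1 for 25, 28, 29 and 26 of them.

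**Figure D2:**
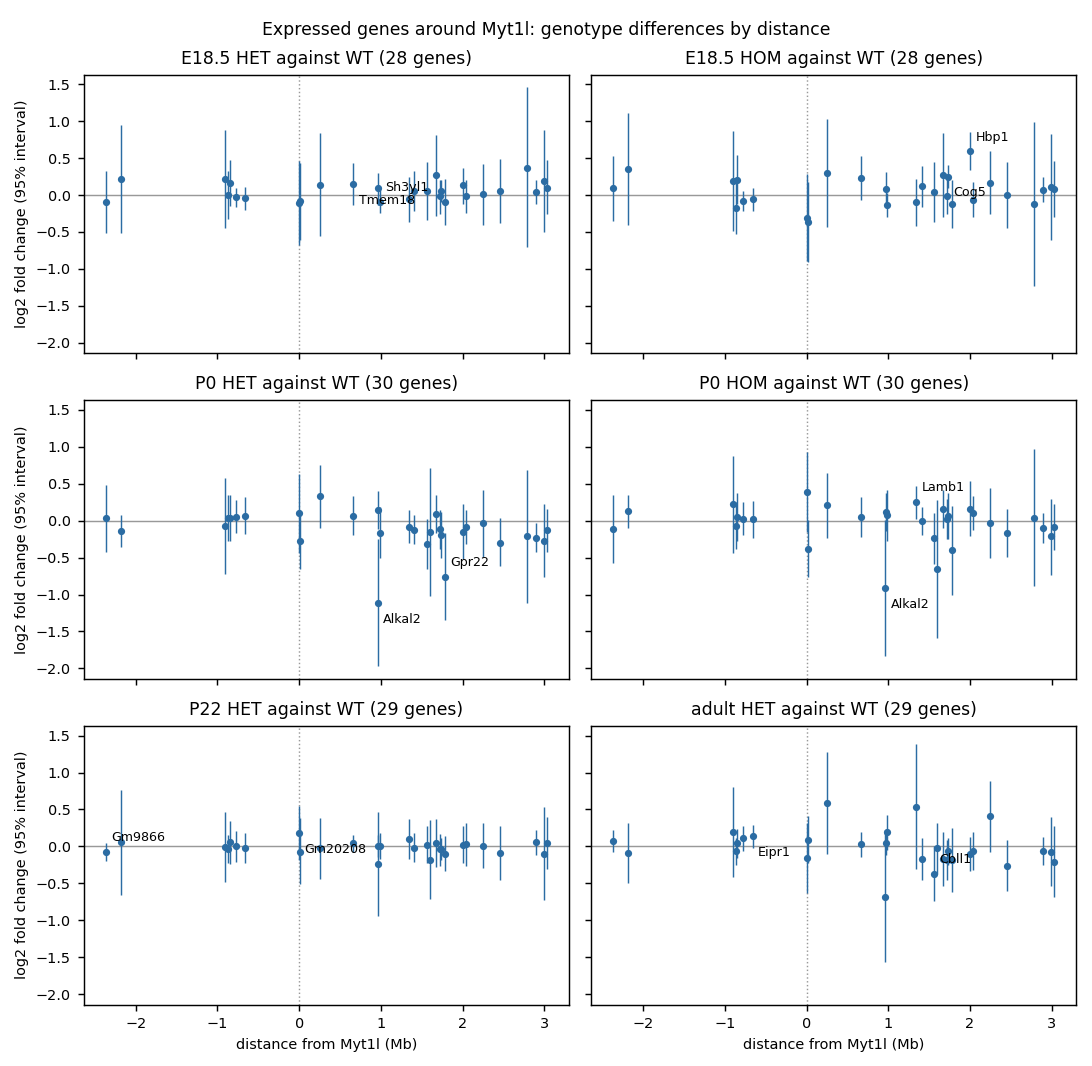
Log2 difference between mutant and control for each tested neighbour (y axis, bars are 95% confidence intervals) against its distance from Myt1l in Mb (x axis, negative before Myt1l), 1 panel for each of 6 comparisons, with the 2 genes of smallest p named. In E18.5 HOM against WT the interval of Hbp1 (0.34 to 0.85) and that of Cog5 (0.09 to 0.40) lie above 0 and Pxdn, next to Myt1l, has an interval from -0.91 to 0.17.

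Distance from Myt1l was described next. In E18.5 HOM against WT the 11 tested neighbours with a start within 1 Mb of Myt1l had a median absolute log2 difference of 0.19, and the 17 beyond 1 Mb had 0.11, with both unadjusted p values under 0.05 in the distant class. In P0 HOM against WT the medians were 0.10 for 12 near genes and 0.12 for 18 distant ones. In HET against WT the near and distant medians were 0.09 and 0.06 at E18.5, 0.08 and 0.15 at P0, 0.03 and 0.04 at P22, and 0.12 and 0.17 in adults. The near class was thus the higher one at E18.5 only. These are descriptions without a test.

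Among the transcription regulators Hbp1 carried the clearest difference. In E18.5 WT it was at 37.3 and 27.0 CPM in batch 1 and at 24.2, 28.7 and 26.7 CPM in batch 3. In HOM it was at 35.4, 39.3 and 43.4 CPM in batch 1 and at 51.9 and 49.3 CPM in batch 3. HET animals ran from 27.7 to 38.6 CPM with a median of 30.5, and the highest was the animal with choroid plexus markers. The groups of WT and HOM overlapped by 1 animal each, since the WT animal at 37.3 CPM lay above the lowest HOM animal at 35.4. HOM exceeded WT by 0.59 on the log2 scale (95% interval 0.34 to 0.85) and HET by 0.47 ± 0.11 (FDR 0.497), while HET differed from WT by 0.13 ± 0.11 (FDR 1).

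The batches gave unequal values for Hbp1. Within batch 3 the HOM against WT difference was 0.93 ± 0.10 (interval 0.71 to 1.14, FDR 0.00153, 2 HOM and 3 WT, all male), where 10.1% of all genes tested were called. Within batch 1 it was 0.23 ± 0.15 (interval -0.11 to 0.57, FDR 0.944, 3 HOM and 2 WT), and the difference between the batches was not tested. With batch as a covariate in the fit of all 16 animals it was 0.58 ± 0.11 (FDR 0.0182), and with DESeq2 0.59 ± 0.13 (FDR 0.00183). Leaving out 1 WT or HOM animal at a time gave log2 differences of 0.53 to 0.73 with an FDR of 0.00919 to 0.186. Among these 10 fits an FDR under 0.05 came only without the WT animal at 37.3 CPM. Fits without a HET animal, which share the estimate of the spread, were not covered. The summed level of 8 cell cycle genes, all of them at or above 1 CPM in each of these animals, had a higher median in HOM than in WT in both batches. Its median was 259 CPM in batch 1 and 203 in batch 3 for WT, and 294 in batch 1 and 369 in batch 3 for HOM, and over both batches it ran from 193 to 296 CPM in WT and from 264 to 381 in HOM. Other marker lists also differed between these groups, some higher and some lower in HOM. Median summed levels in E18.5 WT and HOM were 26.9 and 45 CPM for microglia and 167 and 247 for astrocytes. They were 147 and 110 CPM for endothelial cells and 5813 and 5441 for cortical neurons. The part of any list in the Hbp1 difference was not tested, and in bulk tissue more cells of a type cannot be told apart from more RNA per cell.

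At the later ages Hbp1 showed no such separation. At P0 the WT animals were at 30.3 and 36.7 CPM in batch 1 and 19.3 and 26.2 CPM in batch 3, a split that is also one by sex. HOM animals ran from 27.4 to 33.9 CPM with a median of 31.8, and HET animals from 18.1 to 36.5 with a median of 24.3, so all groups overlapped. HOM against WT gave 0.16 ± 0.18 (interval -0.21 to 0.54). The HOM effect at P0 minus that at E18.5 was -0.43 ± 0.21 on the log2 scale (interval -0.85 to -0.02, FDR 0.564), which did not pass. At P22 Hbp1 had a median of 21.7 CPM in WT and 22.6 in HET, and the adult WT values of 18.52, 19.66 and 18.45 CPM lay inside the HET range of 14.9 to 20.2.

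Sox11 varied more between batches than between genotypes at E18.5. The WT animals of batch 1 were at 1444 and 1159 CPM and those of batch 3 at 427, 546 and 565 CPM, and the HOM animals at 1049, 1248 and 1329 CPM in batch 1 and 745 and 681 in batch 3. Within batch 3 the HOM animals lay above all WT animals, while in batch 1 the groups overlapped. HOM against WT over both batches was 0.35 ± 0.36 on the log2 scale (interval -0.41 to 1.11). At P0 Sox11 was higher in HOM than in HET by 0.27 ± 0.10 (FDR 0.321), with 493.3 to 635 CPM (median 538.8) in HOM and 377 to 540.1 (median 429) in HET, ranges that overlap. The same contrast was 0.42 ± 0.15 within batch 1 and 0.26 ± 0.11 within batch 3. WT at P0 was at 500.2, 591, 461.4 and 462.1 CPM, overlapping both groups, with 1 animal above the HET range and 2 below the HOM range. Cbll1, a ubiquitin ligase also known as Hakai, showed the same kind of batch pattern at E18.5, where WT was at 36.0 and 35.6 CPM in batch 1 and at 23.3, 23.8 and 25.5 CPM in batch 3. Its adult HET against WT difference of -0.37 ± 0.17 (interval -0.74 to 0.00, FDR 0.612) sets 3 WT animals of batch 1 at 16.7, 18.2 and 18.8 CPM against HET animals at 15.4 to 17.4 in batch 1 and 10.1 to 12.4 in batch 3. No adult WT animal was of batch 3, and within batch 1 the difference was -0.15 ± 0.08 (interval -0.33 to 0.04).

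Cog5 lies next to Hbp1 on the opposite strand, and their 3' ends share exon sequence. In GENCODE M21, 1514 of the 6167 exon bases of Hbp1 (24.6%) are also exon bases of Cog5. The strand setting of the counting was not given in the sources used here, so reads from the shared stretch cannot be assigned. In E18.5 WT Cog5 was at 35.4, 32.5, 28.1, 29.2 and 32.2 CPM, and in HOM at 37.8, 38.7, 37.8, 37.0 and 35.1 CPM. The lowest HOM animal at 35.1 CPM lay just under the highest WT animal at 35.4, and the other 4 HOM animals lay above all WT animals. HOM against WT was 0.23 ± 0.10 within batch 1 (FDR 0.904) and 0.27 ± 0.09 within batch 3 (FDR 0.103). Its FDR ran from 0.0386 to 0.904 over 8 alternatives. It was under 0.05 in 2 of them, DESeq2 (0.0386) and a fit of WT and HOM alone (0.0496). With 1 WT or HOM animal left out it was 0.0999 to 0.337. At P0 the HOM against WT difference of Cog5 was 0.06 ± 0.15 (interval -0.25 to 0.37).

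**Figure D3:**
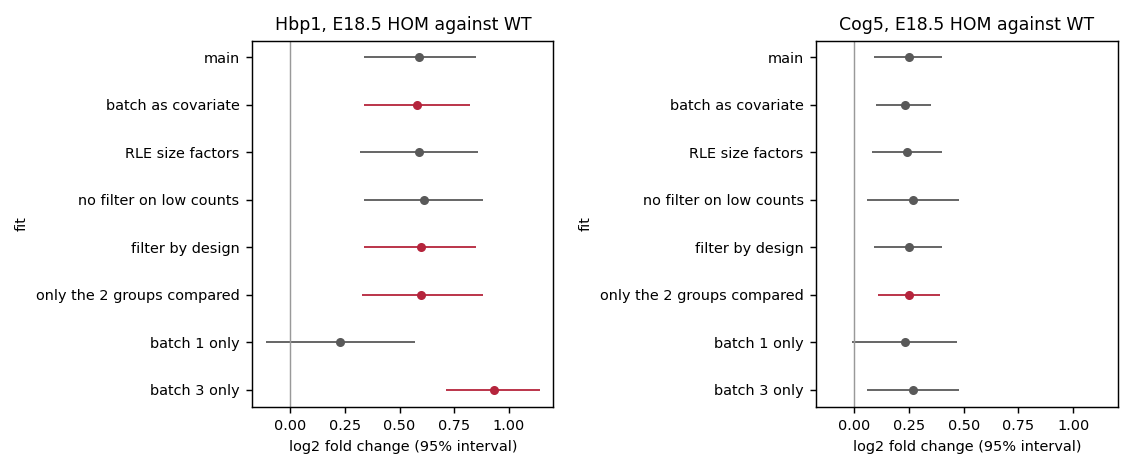
Log2 difference of Hbp1 and Cog5 between E18.5 HOM and WT (x axis, points with 95% confidence intervals) under the primary fit and 7 alternative fits, all with edgeR (y axis), with fits of FDR under 0.05 in red. The DESeq2 fit is not drawn. Hbp1 moves from 0.23 in batch 1 to 0.93 in batch 3, whereas Cog5 stays between 0.23 and 0.27.

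The promoters were read for the element that MYT1L recognises. In RefSeq (GRCm38.p6), 26 of the 30 expressed neighbours had 30 promoter windows of 300 bases, from 250 before to 50 after the start. AAAGTT, searched on both strands, occurred in 8 of the 30 windows (26.7%), beside 4617 of all 32851 windows (14.1%). The 8 were those of Sox11, Gm20208, Tmem18, Lamb1, Dld, Dus4l, Hbp1 and Sypl. The 250 bases before the start are shown for Hbp1, at chr12:31950246-31950495 on the minus strand, for Cog5, at chr12:31654619-31654868 on the plus strand, and for Gm20208, at chr12:29531103-29531352 on the minus strand, because these are the neighbours closest to a call and the one that overlaps Myt1l. Capitals mark AAAGTT, and Cog5 has none in this window. The starts are those of RefSeq. In the deposited gene coordinates Hbp1 reaches to base 31950535 and Gm20208 to base 29534891, both on the minus strand. Their windows shown here therefore lie inside those gene spans and not before them. A match is a description and not a binding site.
Hbp1: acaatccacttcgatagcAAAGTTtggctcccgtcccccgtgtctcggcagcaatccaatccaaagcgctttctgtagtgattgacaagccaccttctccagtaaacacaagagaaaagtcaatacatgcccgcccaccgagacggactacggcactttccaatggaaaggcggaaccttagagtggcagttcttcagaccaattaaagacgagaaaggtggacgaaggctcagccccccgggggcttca
Cog5: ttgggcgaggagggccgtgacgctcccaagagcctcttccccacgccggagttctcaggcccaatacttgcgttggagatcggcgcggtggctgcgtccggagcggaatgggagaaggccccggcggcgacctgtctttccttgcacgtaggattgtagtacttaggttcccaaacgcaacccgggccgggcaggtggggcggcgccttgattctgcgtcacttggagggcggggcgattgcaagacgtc
Gm20208: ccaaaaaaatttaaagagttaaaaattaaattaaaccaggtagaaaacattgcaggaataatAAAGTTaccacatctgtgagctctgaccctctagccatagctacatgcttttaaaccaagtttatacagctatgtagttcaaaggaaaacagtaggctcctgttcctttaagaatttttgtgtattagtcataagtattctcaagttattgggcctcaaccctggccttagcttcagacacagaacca

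Of the other trafficking genes, the 2 nearest before Myt1l varied little. Trappc12 was at 48.0, 47.6, 49.8, 49.8 and 52.8 CPM in E18.5 WT and at 43.4, 45.7, 46.9, 51.5 and 47.6 CPM in HOM. The groups overlapped, and HOM against WT was -0.08 ± 0.06 on the log2 scale (interval -0.21 to 0.05). At P0 the same contrast was 0.02 ± 0.11 and at P22 HET against WT was -0.00 ± 0.10. Eipr1 gave -0.06 ± 0.08 in E18.5 HOM, 0.02 ± 0.12 in P0 HOM and -0.02 ± 0.09 in P22 HET. In adults it was at 52.2, 49.0 and 50.5 CPM in WT and at 51.1 to 63.4 CPM (median 56.1) in HET, a difference of 0.14 ± 0.07 (interval -0.02 to 0.29, FDR 0.612) that was 0.09 ± 0.05 within batch 1. Sntg2, the second gene after Myt1l, was low, at 1.20, 2.47, 1.53, 1.05 and 1.09 CPM in E18.5 WT and 3.04, 2.94, 1.65, 1.01 and 0.835 CPM in HOM. Its 3 HOM animals of batch 1 were higher than its 2 of batch 3, and the contrast was 0.30 ± 0.34 (interval -0.43 to 1.03). In adults Sntg2 had the highest difference of all tested neighbours, 0.59 ± 0.31 (interval -0.10 to 1.28, FDR 0.612), and it was 0.15 ± 0.18 within batch 1.

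Among the matrix and secreted proteins Pxdn is the gene closest to the 3' end of Myt1l. In E18.5 WT it was at 96.4 and 72.3 CPM in batch 1 and at 122, 146 and 129.6 CPM in batch 3, and in HOM at 80.9, 66.2 and 86.7 CPM in batch 1 and at 83.7 and 119.8 CPM in batch 3. Within batch 3 both HOM animals lay under all 3 WT animals, while in batch 1 the groups overlapped. HOM against WT was -0.37 ± 0.25 over both batches (interval -0.91 to 0.17, FDR 0.564), -0.15 ± 0.17 within batch 1 and -0.39 ± 0.14 within batch 3 (FDR 0.118). At P0 WT was at 174, 146, 121 and 83.1 CPM, HET at 78.3 to 132 (median 104) and HOM at 75.5 to 125 (median 99.1). HOM against WT was -0.38 ± 0.18 (interval -0.76 to 0.01, FDR 0.529), and 2 WT animals, both of batch 1 and male, lay above every mutant animal. In P22 HET the difference was -0.07 ± 0.21 and in adult HET 0.09 ± 0.14. Endothelial cells also express Pxdn. The summed level of 6 endothelial markers, all at or above 1 CPM in each animal, was 117 to 164 CPM in E18.5 WT, 107 to 157 in HET and 100 to 140 in HOM, and at P0 it was 120 to 128 in WT, 120 to 141 in HET and 122 to 179 in HOM. Its part in the Pxdn values was not tested.

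Lamb1, the laminin beta 1 chain of basement membranes, had the smallest p of the neighbours at P0 in both contrasts with HOM. WT was at 68.8, 57.1, 58.6 and 54.0 CPM, HET at 51.1 to 63.3 (median 55.5) and HOM at 54.4 to 80.5 (median 72.2), so all 3 groups overlapped. HOM exceeded HET by 0.33 ± 0.10 on the log2 scale (interval 0.12 to 0.53, FDR 0.228) and WT by 0.25 ± 0.11 (interval 0.02 to 0.47, FDR 0.479). With 1 HET or HOM animal left out, the HOM against HET contrast passed an FDR of 0.05 only without the HOM animal at 54.4 CPM. At E18.5 HOM against WT was -0.10 ± 0.15. In adults WT was at 9.22, 13.3 and 9.09 CPM, HET of batch 1 at 8.47 to 12.1 and HET of batch 3 at 19.5 to 26.3 CPM. The adult difference was 0.54 ± 0.38 over all animals (FDR 0.618) and -0.12 ± 0.16 within batch 1 (interval -0.47 to 0.24). Endothelial markers summed to 90.5 to 119 CPM in adult HET of batch 1 and 122 to 163 in batch 3. The collectin Colec11, a secreted lectin, was at 1.63 CPM or less in every animal, with differences of -0.07 to 0.22 on the log2 scale in the 6 single comparisons with WT.

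Alkal2, a ligand of the receptor kinases ALK and LTK, had the lowest fitted difference in P0 HET, -1.11 ± 0.41 (interval -1.97 to -0.25, FDR 0.237). Its counts were low. WT was at 0.715 and 0.707 CPM in batch 1 and at 0.380 and 0.231 CPM in batch 3, and HET ran from 0.162 to 0.312 CPM (median 0.272). The 2 WT animals of batch 1 lay far above all HET animals, whereas of those of batch 3 the animal at 0.231 CPM lay inside the HET range and the other just above it. This split of the WT animals is also one by sex. HET against WT was -1.97 ± 0.43 within batch 1 and 0.08 ± 0.65 within batch 3. In GENCODE M21, 529 of its 1509 exon bases (35.1%) are shared with Acp1 on the other strand, so part of its reads cannot be assigned. HOM against WT at P0 was -0.91 ± 0.44 (interval -1.83 to 0.01), P22 HET -0.24 ± 0.32 and adult HET -0.68 ± 0.40 (interval -1.57 to 0.22).

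**Figure D4:**
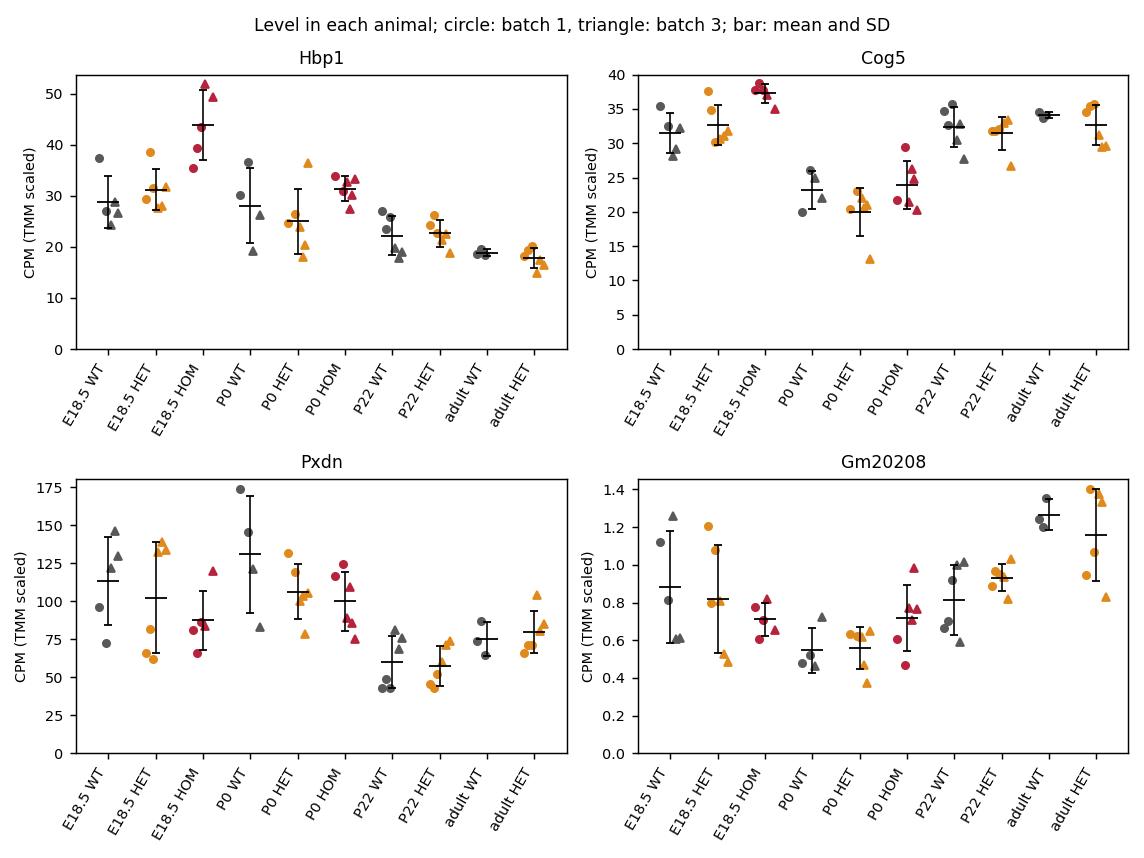
Level of Hbp1, Cog5, Pxdn and Gm20208 in every animal (y axis, CPM from 0) by age and genotype (x axis), with circles for batch 1, triangles for batch 3 and bars for mean ± SD. Hbp1 in E18.5 HOM lies at 35.4 to 51.9 CPM above 4 of the 5 WT animals, and Pxdn at E18.5 separates by batch within WT and within HET but not within HOM.

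Among the signalling genes Gpr22, an orphan G protein-coupled receptor whose gene lies within an intron of Cog5 without sharing exon bases with it, was the other neighbour of smallest p in P0 HET. WT was at 13.4 and 20.6 CPM in batch 1 and at 7.24 and 6.75 CPM in batch 3, HET at 4.94 to 9.86 (median 6.47) and HOM at 6.92 to 12.9 (median 8.17). Only the 2 WT animals of batch 1, both male, lay above all mutant animals. HET against WT was -0.76 ± 0.28 on the log2 scale (interval -1.34 to -0.17, FDR 0.236), -1.08 ± 0.42 within batch 1 and -0.20 ± 0.20 within batch 3. Beside these P0 values, the summed level of 6 striatal markers, all at or above 1 CPM in each P0 animal, was 77.1 to 90.1 CPM in WT of batch 1, 143 to 175 in WT of batch 3, 159 to 223 in HET and 188 to 241 in HOM. The part of dissection in the P0 differences of Gpr22 and Alkal2 was not tested. At E18.5 Gpr22 differed by -0.10 ± 0.15 in HET and -0.12 ± 0.15 in HOM, at P22 by -0.10 ± 0.11 and in adults by -0.18 ± 0.19.

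Prkar2b, the most abundant signalling gene of the neighbours, was at 275, 281, 230.2, 229 and 281 CPM in E18.5 WT and at 231, 281, 254, 262 and 209 CPM in HOM. The groups overlapped and the contrast was -0.07 ± 0.11 on the log2 scale (interval -0.30 to 0.17). In P0 HOM it was 0.11 ± 0.11, in P22 HET 0.03 ± 0.13 and in adult HET -0.06 ± 0.11. Pik3cg, the catalytic subunit of phosphoinositide kinase gamma that is abundant in leukocytes and microglia, differed by 0.16 ± 0.20 in E18.5 HOM and -0.03 ± 0.22 in P0 HOM. In adults it was at 2.97, 3.27 and 1.86 CPM in WT and 3.07 to 4.51 (median 3.36) in HET, a difference of 0.41 ± 0.22 (interval -0.08 to 0.89) that was 0.29 ± 0.16 within batch 1. The summed level of 7 microglia markers, all at or above 1 CPM there, was 276 to 314 CPM in adult WT, 303 to 337 in HET of batch 1 and 441 to 507 in HET of batch 3, and its part was not tested. Sh3yl1, a phosphoinositide-binding SH3 protein, had with Tmem18 the smallest p in E18.5 HET, with -0.09 ± 0.07 (interval -0.24 to 0.07), and -0.13 ± 0.08 in HOM.

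Among the metabolic genes Dld was at 90.9 and 87.9 CPM in batch 1 and 65.9, 64.7 and 68.8 CPM in batch 3 in E18.5 WT, and at 84.2, 95.5 and 80.9 CPM in batch 1 and 78.6 and 69.1 CPM in batch 3 in HOM. Its HOM against WT difference was 0.12 ± 0.13 on the log2 scale (interval -0.16 to 0.39), and at P0 -0.00 ± 0.09. Adi1 gave 0.21 ± 0.15 in E18.5 HOM (interval -0.12 to 0.54), 0.05 ± 0.15 in P0 HOM and 0.06 ± 0.14 in P22 HET. Nampt, the rate-limiting enzyme of NAD salvage, was the remaining neighbour with an unadjusted p under 0.05 in P0 HET. WT was at 44.7, 52.9, 44.9 and 40.5 CPM and HET at 36.9 to 41.5 (median 37.9), so that only the lowest WT animal reached into the HET range. The difference was -0.23 ± 0.09 (interval -0.43 to -0.03, FDR 0.265), -0.35 ± 0.21 within batch 1 and -0.08 ± 0.13 within batch 3.

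Tmem18 and Gm20208 complete the genes closest to the edit. Tmem18 was at 22.7 and 27.9 CPM in batch 1 and 21.3, 20.5 and 18.4 CPM in batch 3 in E18.5 WT, and at 30.3, 31.6 and 27.7 CPM in batch 1 and 20.5 and 20.1 CPM in batch 3 in HOM. The batches differed in both genotypes, and HOM against WT was 0.23 ± 0.14 on the log2 scale (interval -0.07 to 0.53). At P0 the contrast was 0.05 ± 0.13 and at P22 HET against WT was 0.04 ± 0.06. Gm20208 starts inside Myt1l on the opposite strand, at chr12:29526906-29534891, and 633 of its 1726 exon bases (36.7%) are also exon bases of Myt1l. Reads from that stretch cannot be assigned, and Myt1l itself differed between HOM and WT by 0.93 ± 0.13 at E18.5 (FDR 0.0142) and 1.11 ± 0.10 at P0 (FDR 1.32e-05), but between adult HET and WT by -0.04 ± 0.10.

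Gm20208 was between 0.374 and 1.40 CPM in all 53 animals. In E18.5 WT it was at 1.12, 0.814, 1.26, 0.609 and 0.611 CPM and in HOM at 0.778, 0.604, 0.706, 0.819 and 0.652 CPM, with overlapping groups and a log2 difference of -0.31 ± 0.28 (interval -0.90 to 0.28). At P0 WT was at 0.479, 0.521, 0.461 and 0.721 CPM and HOM at 0.470 to 0.986 (median 0.736), a difference of 0.39 ± 0.26 (interval -0.15 to 0.93). The HOM effect at P0 minus that at E18.5 was 0.70 ± 0.32 (interval 0.05 to 1.35, FDR 0.544). P22 HET gave 0.18 ± 0.17 and adult HET -0.16 ± 0.21.

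Whether an effect additive in the number of mutant copies was shared by all ages was asked in a single fit of the 53 animals with age and sex as covariates, which holds the same WT animals as the single comparisons. Of the 30 neighbours 0 were called by edgeR's quasi-likelihood test, beside 4.30% of all 20920 genes (899), and 2 had an unadjusted p under 0.05, beside 17.7%. These were Hbp1, with 0.16 ± 0.05 per copy on the log2 scale (interval 0.06 to 0.26, FDR 0.0502), and Pxdn, with -0.15 ± 0.07 (interval -0.28 to -0.01, FDR 0.222). DESeq2 called 1 (Hbp1, FDR 0.0273), beside 7.37% of the genes it tested. With batch within age as a covariate 2 were called, beside 9.59% of all genes, Hbp1 at 0.18 ± 0.04 (FDR 0.006) and Pxdn at -0.11 ± 0.04 (FDR 0.0451). The value of Hbp1 was 0.06 ± 0.06 without the E18.5 animals (FDR 0.743), 0.06 ± 0.05 within batch 1, where 0.759% of all genes tested were called, and 0.32 ± 0.07 within batch 3 (FDR 0.00688). Within batch 3 alone 2 of the 30 were called, Hbp1 and Sox11, beside 4.30% of all genes tested. For 29 of the 30 the interval lay within ± 0.5 per copy, and the highest and lowest values were those of Hbp1 and of Alkal2 (-0.31 ± 0.17).

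The neighbours' genotype effects were also compared between ages. The mean HET effect at P22 and in adults minus that at E18.5 and P0 passed for 0 of 30 neighbours by edgeR's test, beside 0% of all 20920 genes, with an unadjusted p under 0.05 for 2, beside 3.96%, and for 0 with DESeq2 or with batch within age as covariate. These 2 were Lamb1, with 0.43 ± 0.19 on the log2 scale (interval 0.04 to 0.81), and Sh3yl1, with 0.24 ± 0.11 (interval 0.01 to 0.47). The HOM effect at P0 minus that at E18.5 also passed for 0 of 30, beside 0% of all genes, by the same tools, with an unadjusted p under 0.05 for Gm20208 and Hbp1 (values above), beside 8.63%.

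Larger differences came with age. In WT animals the median absolute log2 difference of the neighbours was 0.77 between P0 and P22, beside 0.82 for all expressed genes. At this step 25 of 30 differed at an FDR under 0.05, beside 77.2% of all 19872 genes tested, 14 of them higher at P22 and 11 lower. Sox11 fell by 5.45 ± 0.35 on the log2 scale, from 500.2, 591, 461.4 and 462.1 CPM at P0 to 6.53 to 16.6 CPM (median 11.7). Slc26a4, the anion exchanger pendrin, rose by 3.45 ± 0.44, from 0.479, 0.424, 0.190 and 0.115 CPM to 2.11 to 4.64 (median 2.94), and Gm9866 by 2.14 ± 0.18, from 11.6, 12.3, 9.14 and 5.13 CPM to 34.7 to 43.5 (median 39.8). For these 3 genes the P0 and P22 animals did not overlap. Prkar2b, Sh3yl1 and Lamb1 fell by 1.35 ± 0.12, 1.41 ± 0.11 and 1.71 ± 0.14, and Adi1, Bcap29 (a protein of the endoplasmic reticulum) and Gpr22 rose by 1.69 ± 0.14, 1.73 ± 0.17 and 1.73 ± 0.26. The share of 25 of 30 lies near that of all genes.

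Between E18.5 and P0, a step in which age and dissection cannot be told apart, 7 of 30 were called in WT, beside 19.2% of all genes tested. Alkal2 rose by 1.57 ± 0.49, Colec11 by 1.05 ± 0.29, Pik3cg by 0.65 ± 0.18 and Tmem18 by 0.29 ± 0.09, and Prkar2b, Sh3yl1 and Cog5 fell by 0.57 ± 0.13, 0.54 ± 0.12 and 0.44 ± 0.09. Colec11 went from 0.203, 0.271, 0.153, 0.387 and 0.450 CPM to 0.654, 0.547, 0.678 and 0.519 CPM without overlap. Within batch 3 alone edgeR called 0 of the 30, beside 0.356% of all genes, and 3 had an unadjusted p under 0.05 in this step. Within batch 1 alone it called 10, beside 17.7% of all genes, and Colec11, Tmem18, Alkal2 and Pik3cg were not among them, so these 4 were called in neither batch alone. In each batch the E18.5 and P0 WT animals were of opposite sex. With batch as a covariate edgeR called 13, beside 30.1% of all genes, these 4 included. Between P22 and adults 6 of 30 were called, beside 21.9% of all genes, with 4933406C10Rik higher by 0.94 ± 0.24 and Gm18726, Pik3cg, Lamb1, Nampt and Tmem18 lower. Pik3cg went from 4.14 to 6.12 CPM (median 4.90) to 2.97, 3.27 and 1.86 CPM, a fall of 0.89 ± 0.19. Gm18726 was at 0, 0 and 0.0251 CPM in the adult WT animals, too few counts for a fold change. The adult WT animals were all of batch 1, and with batch as a covariate 12 were called, beside 36.0% of all genes. Within batch 1 alone 13 were called, beside 38.4%.

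The 63 genes under the bound of expression included 14 with no read in any library, and their median sum was 8 reads. By GENCODE M21 type, 20 were processed pseudogenes and 16 lincRNA. Between 1 and 8 of the 63 passed the filter on low counts in a given fit. In the genotype comparisons edgeR called 0 of those that passed, and 0 had an unadjusted p under 0.05. The rest had too few reads for a test.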

How the data were processed

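Bulk RNA was measured in mouse cortex. The authors deposited whole-number read counts of genes in 100 libraries, made from strand-specific (dUTP) paired reads mapped with STAR to mm10 per the study's methods and the submitters' processing notes. How reads were counted, with which strand option and gene models, is not given in the sources used here, so reads of overlapping genes on opposite strands were not taken as separable. The deposited size-factor normalised counts and the table of the authors' own comparisons (fold changes and p-values) were not used.

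Where an animal had 2 libraries (47 of 53 animals), they were summed, since the chi-square of their counts divided by its degrees of freedom was 1.19 to 1.35, against 4.26 to 83.1 between animals of a group. The sums were fitted with edgeR 4.0.16 in R 4.3.3 (TMM, filterByExpr by group, quasi-likelihood F test, 2-sided) with sex as covariate, 1 fit per age for genotypes, 1 for WT ages and 1 over all animals for the number of mutant copies and for differences between ages. A gene was called at a Benjamini-Hochberg FDR under 0.05 over all genes tested. Intervals are at 95%. Differences are log2 ± standard error and levels are CPM scaled by TMM over all 53 animals. The p-values set each difference against the spread between animals that was left after the terms of the fit. Batch was not a term of the primary fits. Whether the fits can find genotype differences as small as those reported here was not tested. DESeq2 1.42.0, batch terms, other scalings and filters, single batches and leaving out each animal were alternatives.

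Named genes were the 3 expressed neighbours nearest to Myt1l on each side, any that overlaps it, the 2 of smallest p per genotype comparison, the 3 of highest WT level per kb, the 3 largest called changes per WT age step, and those at the bounds of position and expression. Other genes were named after their values were seen. The members and lists were chosen with earlier results of these data known. Exon overlaps and types come from GENCODE M21 (91 of 93 identifiers matched), the alleles from the study's genotyping primers placed on M21 transcripts, and promoters from RefSeq (GRCm38.p6).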

Additional observations from a re-analysis of the deposited data

Results flagged for a closer look

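The 24 expressed neighbours that the naming rule picked, some of them for a small p, were screened in the groups of 4 to 6 animals, and 14 of 216 combinations of a gene and a group held 1 animal whose gap to the nearest other was large against the group's range (Dixon's 95% criterion). Chance gives about 1 in 20 such groups. Values are CPM.

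A single P0 HET animal was low for Trappc12 at 33.6, against 45.4 to 48.3 in the other P0 HET animals, and for Cog5 at 13.1, against 20.4 to 23. A P22 HET animal was low for Cog5 at 26.7, against 31.8 to 33.4, and the same animal for Dld at 91.5, against 109 to 117. A P0 HOM animal was high for Gpr22 at 12.9, against 6.92 to 9.08, and the same animal for Cbll1 at 32.1, against 18 to 23.

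The E18.5 HET animal that carried the choroid plexus markers was high for Hbp1 at 38.6, against 27.7 to 31.8. Among P0 HOM animals 1 was high for Sh3yl1 at 34.3, against 20.5 to 23.3, and another for Colec11 at 1.63, against 0.478 to 0.718. A P0 HET animal was high for Lamb1 at 63.3, against 51.1 to 55.6. An E18.5 HOM animal was low for Gpr22 at 7.92, against 10.2 to 10.6, and an adult HET animal for Tmem18 at 27.5, against 31.2 to 33.5. Among low-count genes, an E18.5 WT animal had 0.429 for Slc26a4, against 0 to 0.123, and an E18.5 HET animal had 1.84 for 4933406C10Rik, against 0.391 to 0.846.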

How the results depend on the processing

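In comparisons between groups, the leave-one-out fits counted here cover the animals of the compared groups only. The number of expressed neighbours called stayed at 0 under every alternative counted in E18.5 HET against WT and E18.5 HOM against HET. It also stayed at 0 in P0 HET and P0 HOM against WT, P22 HET, adult HET and both differences between ages. The leave-one-out fits of these differences between ages were added after the data were examined. In E18.5 HOM against WT the number called went from 0 to 1 with batch as a covariate (3.26% of all genes) and in batch 3 only (10.1%). It was also 1 at an FDR of 0.1 and with the filter given the design (added after the data were examined). It went to 2 with DESeq2 (4.34%) and in the 2 groups alone. With 1 WT or HOM animal left out it was 0 to 1 (1 without the WT animal of highest Hbp1). P0 HOM against HET gave 0 to 1 (1 without the HOM animal of lowest Lamb1). For copies across ages the number called went from 0 to 1 with DESeq2 (7.37% of all genes). It was also 1 at an FDR of 0.1, with RLE size factors, with the filter given the design, without P22 and without adults. It went to 2 in batch 3 only (Sox11 and Hbp1, beside 4.30%) and with batch within age (Hbp1 and Pxdn, beside 9.59%). With 1 animal left out it was 0 to 1 (1 in 25 of 53). For WT P0 against E18.5 the 7 became 4 within 1 Mb of Myt1l and 11 at an FDR of 0.1 or with no filter. They became 11 with DESeq2 (22.8% of all genes), 13 with batch as covariate (30.1%) and 0 in batch 3 only (0.356%). With 1 animal left out the count was 4 to 9 (4 without either P0 WT animal of batch 1). For WT P22 against P0 the 25 became 9 within 1 Mb and 23 to 26 with 1 animal left out. For WT adult against P22 the 6 became 1 within 1 Mb, 12 with batch as covariate (36.0% of all genes) and 13 in batch 1 only (38.4%). With 1 animal left out the count was 3 to 7 (3 without adult B58, B76 or B78 in turn). The counts within 1 Mb cover fewer genes by construction, and the cause of the other changes was not tested. Percentages are shares called of all genes tested. For settings without a percentage that share is not given here, so their counts cannot be set against all genes. Adult animals of batch 3 gave no value, since no adult WT was of batch 3. No paired analysis was possible because the animals' numbers are their own and are not shared between groups. Of the genes with few counts, Alkal2 had intervals as wide as -1.97 to -0.25 (P0 HET), but wide intervals also occurred at high counts, as for Sox11 in E18.5 HOM (-0.41 to 1.11).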
